A study of Mus musculus with 8 samples.

Results

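Transcripts of 10 phospholipase C isoforms were followed in mouse undifferentiated pleomorphic sarcoma, a soft tissue sarcoma that was raised in the hind limb muscle. The isoforms Plcb1, Plcb2, Plcb3, Plcb4, Plcg1, Plcg2, Plcd1, Plcd3, Plcd4 and Plce1 were selected by gene symbol from the 26667 genes of the count table, and they were chosen from among the family with their levels in these tumours already known. Their differences between genotypes are therefore given as a description, and no p-value is given for them. RNA came from 8 formalin-fixed, paraffin-embedded tumours, 4 labelled KP and 4 labelled KPH2, with 1 library each. KP tumours carried Trp53 fl/fl together with a further engineered allele, and KPH2 tumours carried both and in addition Epas1 fl/fl, where Epas1 encodes HIF-2α. In both genotypes adenovirus carrying Cre was injected into the muscle of mice that were at least 8 weeks old, of both sexes and of a mixed 129 and C57BL/6 background, and tumours were taken 7 weeks later or at the largest permitted size. Loss of Trp53 and the further allele were thus common to all tumours, and host cells that Cre did not reach kept intact alleles of every gene. The comparison addresses how loss of HIF-2α in these tumour cells bears on the transcript levels of the isoforms.

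Phospholipase C enzymes cut the membrane lipid phosphatidylinositol bisphosphate into inositol trisphosphate (IP3), which releases stored calcium, and diacylglycerol, which activates protein kinase C. The beta isoforms are switched on by Gq proteins below cell-surface receptors, and the gamma isoforms by receptor and non-receptor tyrosine kinases. The delta isoforms respond to calcium, and the epsilon isoform binds small GTPases. Plcb2 and Plcg2 are known chiefly from blood cells, whereas Plcg1 and Plcb3 are found in many tissues.

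Because HIF-2α binds DNA through the core letters ACGTG or GCGTG, the 250 bases before the RefSeq transcription start (build GRCm38.p6) were searched for these letters on both strands. A match is a description of the letters and not a binding site. At least 1 match was present in 38.6% of 32851 such windows of 27025 genes (ACGTG in 16.6%, GCGTG in 28.2%). For the 10 isoforms, 4 of 13 windows held a match, 1 window each for Plcb1, Plcd1, Plcg1 and Plcg2. The sequences below belong to Plcb3, the 1 isoform whose KP and KPH2 2 to 4 values did not overlap, to the 2 gamma isoforms, whose windows held the most matches, and to Plcl1, the related gene that was higher in KPH2 2 to 4 and not in KPH2 1. They are written 5′ to 3′ on the strand of the gene, end at the base before the start, and carry matches in capitals.
Plcb3 (chr19:6969815-6970064, minus strand): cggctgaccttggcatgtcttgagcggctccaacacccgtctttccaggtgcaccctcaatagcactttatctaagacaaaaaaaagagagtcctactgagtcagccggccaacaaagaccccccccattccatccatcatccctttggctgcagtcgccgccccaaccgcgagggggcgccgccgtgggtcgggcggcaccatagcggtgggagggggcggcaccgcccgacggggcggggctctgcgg
Plcg1 (chr2:160731060-160731309, plus strand): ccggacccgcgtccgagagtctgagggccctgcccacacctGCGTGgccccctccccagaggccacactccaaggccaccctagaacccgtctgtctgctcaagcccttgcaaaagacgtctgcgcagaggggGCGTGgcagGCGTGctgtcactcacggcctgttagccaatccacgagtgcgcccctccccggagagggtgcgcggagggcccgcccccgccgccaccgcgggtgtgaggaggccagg
Plcg2 (chr8:117498025-117498274, plus strand): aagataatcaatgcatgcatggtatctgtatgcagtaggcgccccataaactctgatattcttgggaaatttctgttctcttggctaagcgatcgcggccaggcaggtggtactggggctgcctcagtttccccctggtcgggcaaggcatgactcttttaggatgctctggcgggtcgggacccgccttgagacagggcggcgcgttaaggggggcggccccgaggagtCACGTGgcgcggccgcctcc
Plcl1 (chr1:55405696-55405945, plus strand): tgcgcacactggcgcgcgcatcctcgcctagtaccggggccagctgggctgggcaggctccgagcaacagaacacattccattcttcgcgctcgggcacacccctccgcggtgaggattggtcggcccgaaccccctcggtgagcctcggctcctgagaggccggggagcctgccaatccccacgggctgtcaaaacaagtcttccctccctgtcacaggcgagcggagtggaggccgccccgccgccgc
The Plcb3 and Plcl1 windows held none of these letters. The start used for Plcb3 lies inside the RefSeq span of the gene (chr19:6953708-6975006), and the outer end of that span was not searched. The windows of Plcb4, Plcd4 and Plce1 likewise lie inside the spans given below. The Plcg1 window held 3 GCGTG matches, which began 209, 117 and 108 bases before the start. In the Plcg2 window the run CACGTG reads ACGTG on both strands, and the 2 overlapping matches began 20 and 19 bases before the start.

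Total counts assigned to genes ran from 6463221 (KP 6) to 13155510 (KP 5). No library looked like a second deposit of another, as the chi-square between counts was at least 30.4 times its degrees of freedom in every pair, a value that also depends on depth. The study set 1 KPH2 tumour aside as a technical outlier. KPH2 1 is the tumour missing from the header of its 7-tumour table of normalized values, so KPH2 1 is given apart throughout and fold changes compare KPH2 2 to 4 with KP 5 to 8. Epas1, the deleted gene, was present at 59.1, 83.0, 86.7 and 83.9 CPM (counts scaled to library size, per 1000000) in KP 5 to 8, at 32.6 in KPH2 1 and at 53.3, 37.7 and 42.4 in KPH2 2 to 4. Every KPH2 tumour lay below every KP tumour for Epas1, although the difference did not pass the threshold (log2 fold change −0.81 ± 0.19 (SE), adjusted p = 0.0742 by edgeR's quasi-likelihood test). It passed in edgeR without KP 5 (adjusted p = 0.0442) and in DESeq2 over 7 tumours (0.0115) and over 8 (0.00575), and its adjusted p ran up to 0.768 over the 16 alternatives, with the muscle score in the fit. Of 14867 genes tested, 185 were higher (1.24%) and 107 lower (0.72%) in KPH2 2 to 4 at an adjusted p under 0.05, 292 in all (1.96%). With KPH2 1 added, 1 of 14805 genes passed. The groups did not overlap for 1298 genes that were higher (8.73%) and 1212 that were lower (8.15%).

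All 10 isoforms passed the filter on low counts. Between KP and KPH2 2 to 4, 4 isoforms had a higher and 6 a lower fitted level, with a median log2 fold change of −0.10 beside −0.018 over all tested genes. The range was −0.74 (Plcb2) to 0.69 (Plcb3). Of the 10, 1 isoform was past the threshold, beside the 1.96% of all genes, and the groups were apart for 1 isoform that was higher and none that was lower, beside 8.73% and 8.15%. In each case that isoform was Plcb3, and over all 8 tumours it was neither apart nor past the threshold. These isoforms were chosen with the contrast known, so nothing is read from these counts.

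Plcb3 encodes a broadly expressed beta isoform that takes signals from Gq proteins and from the beta-gamma subunits of G proteins. It lies on chr19:6953708-6975006 (Entrez 18797) in RefSeq GRCm38.p6. Its level was 76.6, 59.5, 70.6 and 64.2 CPM in KP 5 to 8, 60.9 in KPH2 1 and 103, 109 and 117 in KPH2 2 to 4. The tumours KPH2 2 to 4 stood above every KP tumour, while KPH2 1 lay within the KP range. The means were 67.7 ± 7.5 CPM (SD, n = 4) and 109.6 ± 7.07 CPM (SD, n = 3), a ratio of 1.62. The fitted log2 fold change was 0.69 ± 0.14 (SE) over 7 tumours and 0.52 ± 0.21 over 8. With 1 of the 7 tumours left out in turn it ran from 0.63 to 0.77.

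Plcb4, a beta isoform best known from neurons and the retina, lies on chr2:135658603-136014602 (Entrez 18798). Its level was 61.2, 38.6, 42.9 and 47.6 CPM in KP 5 to 8, 27.8 in KPH2 1 and 55.8, 73.5 and 80.2 in KPH2 2 to 4. KP 5 lay above KPH2 2, so the groups overlapped, and KPH2 1 was the lowest of all 8 tumours. The log2 fold change of Plcb4 was 0.55 ± 0.20 over 7 tumours and 0.32 ± 0.31 over 8.

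Plcb2, the beta isoform of blood cells, lies on chr2:118705003-118728661 (Entrez 18796). Its level was 15.1, 12.9, 24.4 and 16.7 CPM in KP 5 to 8, 9.02 in KPH2 1 and 7.91, 9.59 and 13.5 in KPH2 2 to 4. Of the 4 KPH2 tumours, KPH2 4 alone reached into the KP range, just above KP 6. The log2 fold change was −0.74 ± 0.29 over 7 tumours and −0.79 ± 0.26 over 8, so for Plcb2 the added tumour KPH2 1 sat with the others of its genotype.

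Plcb1, another Gq-driven isoform, lies on chr2:134786164-135475258 (Entrez 18795) and was at 121, 39.0, 29.9 and 45.8 CPM in KP 5 to 8. It was at 51.0 CPM in KPH2 1 and at 56.8, 45.3 and 54.9 in KPH2 2 to 4. KP 5 stood above every KPH2 tumour, KP 8 lay at the lower end of the KPH2 range, and KP 6 and KP 7 lay below it. The log2 fold change was −0.18 ± 0.46 and became 0.46 without KP 5.

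The ratio of Plcb3 to Plcb2 within each tumour, which does not depend on how libraries are scaled, was 5.07, 4.63, 2.89 and 3.84 in KP 5 to 8. It was 6.75 in KPH2 1 and 13.0, 11.4 and 8.65 in KPH2 2 to 4. All 4 KPH2 tumours stood above the 4 KP tumours for this ratio. The pair was picked after the levels were seen. Plcb3 had the largest rise and Plcb2 the largest fall of the 10 isoforms, which favours such a separation. Nothing is read from the ratio, and other pairs were not counted.

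**Figure D1:**
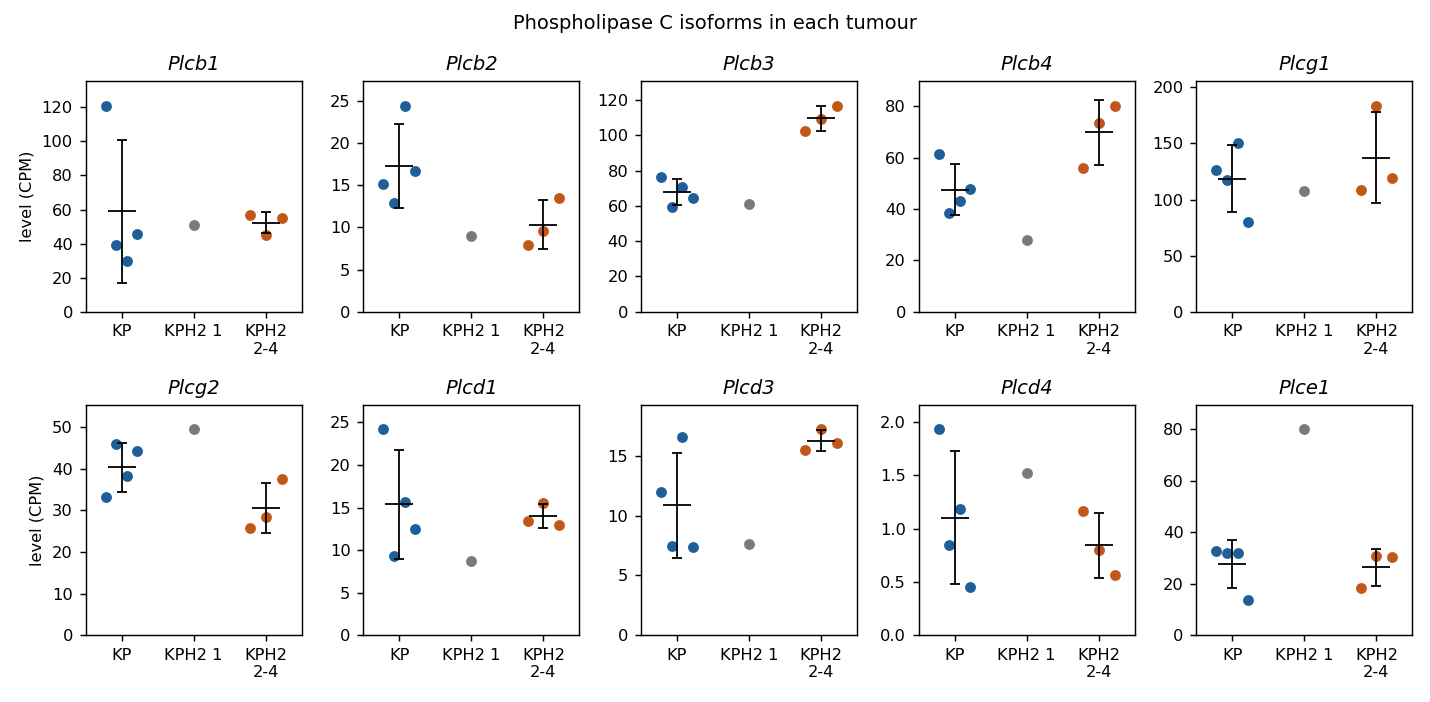
Level of each isoform in CPM (linear vertical axis from 0, own scale per panel), with points for single tumours of KP, KPH2 1 and KPH2 2 to 4, and bars for mean and SD. Plcb3 shows KPH2 2 to 4 at 103 to 117 above KP at 59.5 to 76.6, while KPH2 1 has 80.0 for Plce1 where no other tumour exceeded 32.7.

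Among the gamma isoforms, Plcg1, the widely expressed effector of growth factor receptors, lies on chr2:160731310-160775760 (Entrez 18803). It was at 127, 118, 151 and 79.6 CPM in KP 5 to 8, 108 in KPH2 1 and 109, 184 and 119 in KPH2 2 to 4. The genotypes overlapped, with KPH2 3 the highest tumour and KP 8 the lowest. The log2 fold change was 0.21 ± 0.26, and −0.06 when KPH2 3 was left out. Of the exonic length of Plcg1, 11.8% (525 bases) overlaps exons of Zhx3 and Gm27206 on the opposite strand, and the strand setting of the counting is not given in the sources used here.

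Plcg2, which acts below antigen and Fc receptors in blood cells, lies on chr8:117498275-117635142 (Entrez 234779). Its level was 33.1, 45.9, 38.2 and 44.3 CPM in KP 5 to 8, 49.4 in KPH2 1 and 25.9, 28.4 and 37.5 in KPH2 2 to 4. KPH2 2 and KPH2 3 lay below every KP tumour, KPH2 4 lay within the KP range and KPH2 1 was the highest of all 8. The log2 fold change was −0.40 ± 0.19 over 7 tumours and −0.19 ± 0.22 over 8.

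The delta isoforms are the ones most sensitive to calcium. Plcd3 (chr11:103070296-103101710, Entrez 72469) was at 11.9, 7.48, 16.6 and 7.38 CPM in KP 5 to 8, 7.66 in KPH2 1 and 15.5, 17.2 and 16.1 in KPH2 2 to 4. KP 7 lay between the KPH2 tumours, so the groups overlapped (log2 fold change 0.59 ± 0.30). Plcd1 (chr9:119071527-119093502, Entrez 18799) was at 24.2, 9.32, 15.7 and 12.4 CPM in KP 5 to 8, 8.70 in KPH2 1 and 13.5, 15.6 and 12.9 in KPH2 2 to 4. The KPH2 2 to 4 values fell inside the KP range, and the log2 fold change was −0.14 ± 0.31. Plcd4 (chr1:74541975-74565977, Entrez 18802), known for its part in the sperm acrosome reaction, stayed between 0.452 and 1.93 CPM and rested on 5 to 26 reads per tumour. Its log2 fold change was −0.38 ± 0.56, and 12.7% of its exonic length overlaps Zfp142 on the opposite strand.

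Plce1, the isoform that binds small GTPases, lies on chr19:38481034-38785105 (Entrez 74055). Its level was 32.7, 32.1, 32.0 and 13.7 CPM in KP 5 to 8 and 18.2, 30.7 and 30.6 in KPH2 2 to 4. In KPH2 1 it was 80.0 CPM, 2.45 times the highest of the other 7 tumours and 2.9 times the KP mean. The log2 fold change of Plce1 was −0.06 ± 0.33 without KPH2 1 and 0.53 ± 0.46 with it.

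KPH2 1 held the lowest or highest of the 8 values for 4 isoforms, namely lowest for Plcb4 and Plcd1 and highest for Plcg2 and Plce1. Over all genes tested it held an extreme for 32.4%. Summed over the 10 isoforms, the level ran from 332 CPM (KP 8) to 504 (KP 5) in KP, was 404 in KPH2 1, and ran from 406 (KPH2 2) to 514 (KPH2 3) in the others, so the totals overlapped. Plce1 varied most between tumours, with a standard deviation of log2 CPM of 0.74 over the 8 tumours, and Plcg2 least with 0.33.

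**Figure D2:**
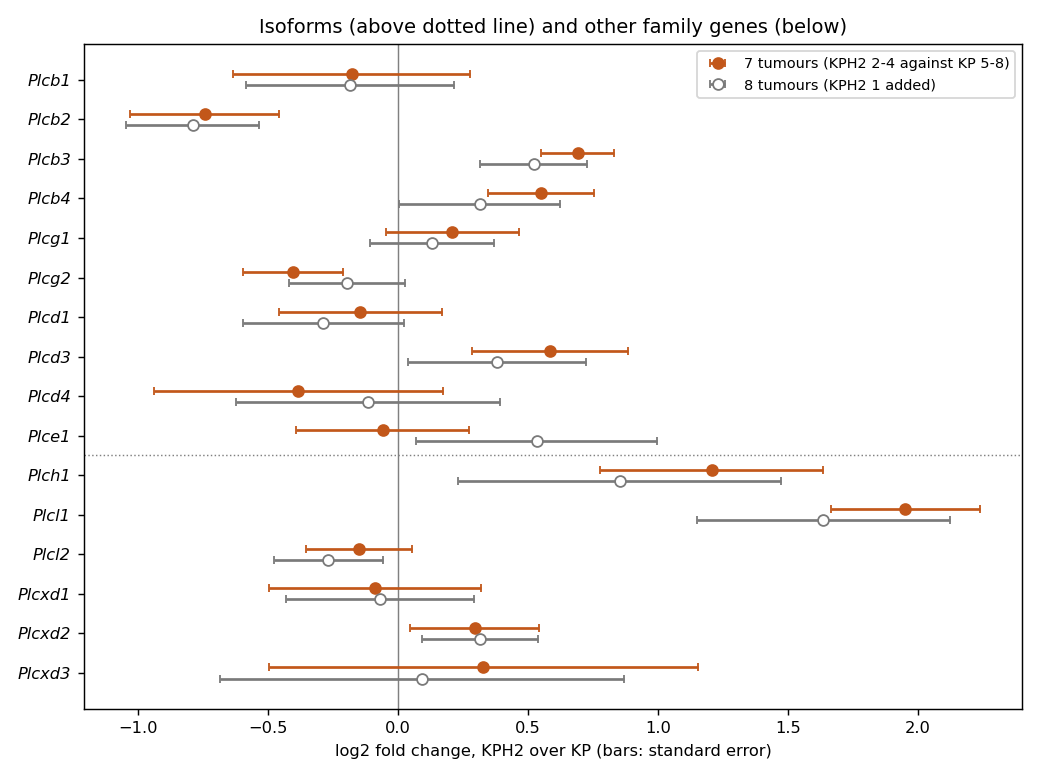
Log2 fold change of KPH2 over KP with its SE for the 10 isoforms and 6 related genes, over 7 tumours (filled) and over 8 tumours with KPH2 1 added (open). Plcl1 at 1.95 lies farthest from 0, and Plce1 moves from −0.06 to 0.53 when KPH2 1 is added.

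Levels of different isoforms were compared per kilobase of exon (RPKM). In KP tumours the mean RPKM was highest for Plcg1 (26.8), followed by Plcb3 (15.9), Plcg2 (9.39), Plcb4 (9.12), Plcb1 (8.17) and Plcd1 (5.4), then Plcd3 (3.59), Plcb2 (3.36), Plce1 (2.92) and Plcd4 (0.355). Only the steps from Plcb3 to Plcg2 and from Plce1 to Plcd4 had ranges that did not overlap. Within single tumours, Plcg1 was above Plcb3 and Plcd1 above Plcd3 in 4 of 4, while the other neighbours with overlapping ranges kept their order in 2 or 3 of 4. In KPH2 2 to 4 Plcg1 (30.9 RPKM) and Plcb3 (25.7) again led, and their ranges overlapped. Plcb4 (13.4) followed, apart from both Plcb3 above it and Plcb1 (7.26) below it. Plcg2 then had 7.11, Plcd3 5.37, Plcd1 4.91, Plce1 2.81, Plcb2 2.01 and Plcd4 0.272 RPKM. The steps from Plcg2 to Plcd3, from Plcd1 to Plce1 and from Plcb2 to Plcd4 were apart, and the others overlapped. Within single tumours Plcd3 was above Plcd1 and Plce1 above Plcb2 in 3 of 3, Plcg1 above Plcb3 in 2 and Plcb1 above Plcg2 in 1.

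**Figure D3:**
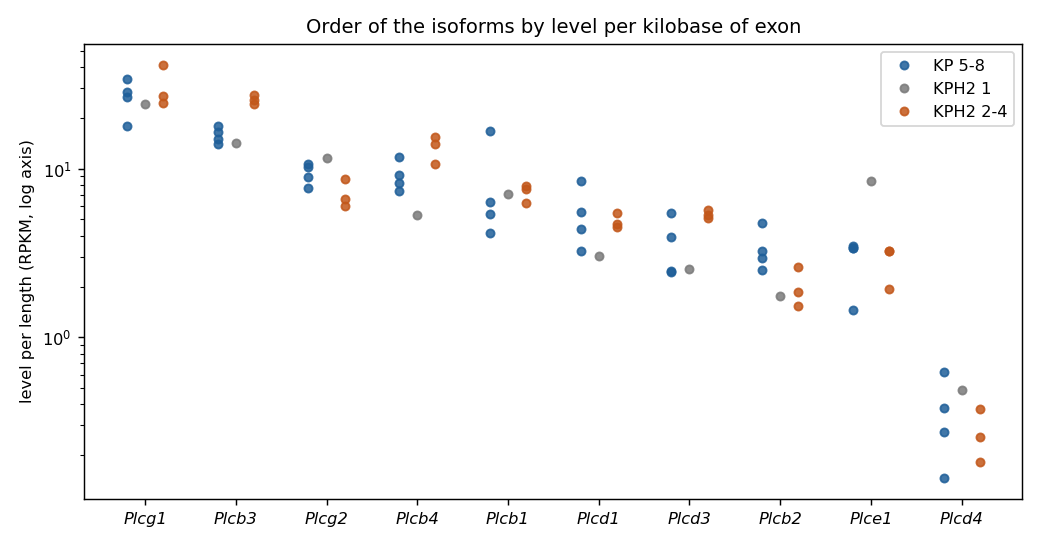
Level per length (RPKM, log axis) of the isoforms, ordered by the KP mean, with 1 point per tumour for KP 5 to 8, KPH2 1 and KPH2 2 to 4. Plcg1 and Plcb3 lead in KP (26.8 and 15.9) and Plcd4 is lowest (0.355).

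For the related genes, lists by role and marker lists the test values are given, but these lists too were chosen with earlier results of these tumours known and are not independent evidence. Plcl1 encodes a catalytically inactive relative that binds IP3, and it lies on chr1:55405946-55754285 (Entrez 227120). Its level was 10.5, 15.4, 13.0 and 17.0 CPM in KP 5 to 8, 11.7 in KPH2 1 and 31.8, 68.1 and 62.7 in KPH2 2 to 4. KPH2 2 to 4 stood above every KP tumour and KPH2 1 lay within the KP range. The means were 14 ± 2.84 CPM (SD, n = 4) and 54.2 ± 19.6 CPM (SD, n = 3), and Plcl1 rose by a log2 fold change of 1.95 ± 0.29 (adjusted p = 0.0222, edgeR). With KPH2 1 the fold change was 1.64 ± 0.49 and no longer passed (adjusted p = 0.206, edgeR), though DESeq2 over the same 8 tumours gave 0.0221. Without KP 6, KP 7 or KPH2 4 its adjusted p was 0.0523, 0.0629 and 0.0528 by edgeR.

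Of the 8 related genes, 6 were tested and Plcl1 alone passed. Plch1, of the eta class known from neurons, was at 1.66 to 4.74 CPM in KP, 1.20 in KPH2 1 and 4.69 to 10.7 in KPH2 2 to 4 (log2 fold change 1.21 ± 0.43, adjusted p = 0.193, edgeR). The log2 fold changes were −0.15 for Plcl2, the other inactive relative, −0.09 for Plcxd1, 0.30 for Plcxd2 and 0.33 for Plcxd3, each with an adjusted p above 0.58. Plch2 did not exceed 0.964 CPM and Plcz1, the sperm isoform, had 1 read in all, so neither was tested.

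Around the isoforms, 145 genes in 8 lists by role were examined, the related genes included, and 134 were tested. Of these, 3 were higher and 2 lower in KPH2 2 to 4 by edgeR, beside 1.24% and 0.72% of all genes. The median log2 fold change of the lists was −0.22, and 41 of their genes had an unadjusted p under 0.05, 29 of them lower, beside 17.8% of all genes (8.5% higher and 9.26% lower). No gene of the lists passed with KPH2 1 added, and 26 then had an unadjusted p under 0.05, beside 14.7% of all genes. By DESeq2 over 7 tumours 6 were higher and 14 lower, beside 3.8% and 3.45% of all genes, and over 8 tumours 2 were higher and 10 lower, beside 1.62% and 2.32%. Upstream, none of 9 Gq class G protein genes passed (1 at an unadjusted p under 0.05, none by DESeq2), with Gna15, a blood-cell Gq protein, at −0.54. Of 26 Gq-coupled receptors 10 had an unadjusted p under 0.05, 7 of them lower, DESeq2 called 2 higher and 3 lower, and 1 rose in edgeR: Lpar3, a receptor for lysophosphatidic acid, was at 0.148 to 0.989 CPM in KP, 0.319 in KPH2 1 and 2.70 to 5.89 in KPH2 2 to 4 (log2 fold change 3.0 ± 0.52, adjusted p = 0.0325, edgeR). Lpar3 had 1 to 9 reads in each KP tumour and 4 in KPH2 1 against 24 to 59 in KPH2 2 to 4, so it passed the filter on low counts only through the tumours where it was high, and its call is no support for the list. Of 17 genes on the tyrosine kinase route to the gamma isoforms 8 had an unadjusted p under 0.05, 7 of them lower, DESeq2 called 5 lower and none higher, and 1 fell in edgeR: Pdgfra, a platelet-derived growth factor receptor, was at 719 to 1491 CPM in KP, 638 in KPH2 1 and 223 to 273 in KPH2 2 to 4 (log2 fold change −2.02 ± 0.27, adjusted p = 0.0183, edgeR). The adjusted p for Pdgfra was 0.0718 without KPH2 2 and stayed under the threshold without any other of the 7 tumours, and that for Lpar3 stayed under it only without KP 5 or KPH2 4 (0.0435 to 0.107 over the 7 omissions, edgeR). On the tyrosine kinase route the 5 genes that DESeq2 called lower were Btk, Fgfr2, Kdr, Pdgfra and Syk. Pdgfra is also a marker of mesenchymal cells and Kdr one of endothelial cells. Of the endothelial markers 8 were lower and 2 higher, and all 12 myeloid markers were lower. The part of cell mixture in these differences was not tested.

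For the counts that follow, 1.96% of all genes passed in edgeR and 17.8% had an unadjusted p under 0.05. DESeq2 called 3.8% of all genes higher and 3.45% lower. None of 17 genes that supply phosphoinositides passed in edgeR (2 had an unadjusted p under 0.05, 1 passed by DESeq2). Cds1, which makes the precursor for phosphatidylinositol, was at −0.99 ± 0.27 with an adjusted p of 0.106 by edgeR. Among 11 genes for IP3 receptors and IP3 removal 3 had an unadjusted p under 0.05, 2 of them lower, and DESeq2 called 2 lower. In edgeR 1 fell, Mrvi1, a partner of the IP3 receptor in smooth muscle, from 10.7 to 21.8 CPM in KP to 3.86 to 6.09 in KPH2 2 to 4, with 3.11 in KPH2 1 (log2 fold change −1.77 ± 0.31, adjusted p = 0.0338, edgeR). Among 23 genes of the diacylglycerol branch 9 had an unadjusted p under 0.05, 7 of them lower, and DESeq2 called 2 lower and 1 higher. In edgeR 1 rose, the protein kinase C gene Prkcb, from 85.4 to 138 CPM in KP to 221 to 443 in KPH2 2 to 4 (log2 fold change 1.78 ± 0.27, adjusted p = 0.0232, edgeR). KPH2 1 had 43.1 CPM for Prkcb, below every KP tumour. With 1 of the 7 tumours left out, Mrvi1 passed only without KP 5 or KP 8 (adjusted p 0.0278 to 0.124, edgeR), and Prkcb only without KP 5, KP 7 or KPH2 3 (0.0101 to 0.0833). None of 25 calcium effectors passed in edgeR (6 had an unadjusted p under 0.05, 3 passed by DESeq2), and the list's median was 0.03. Camk2g, a calmodulin-dependent kinase, was at 0.55 ± 0.15 and Rcan1, a calcineurin regulator, at −1.20 ± 0.33, with adjusted p of 0.117 and 0.11 by edgeR.

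**Figure D4:**
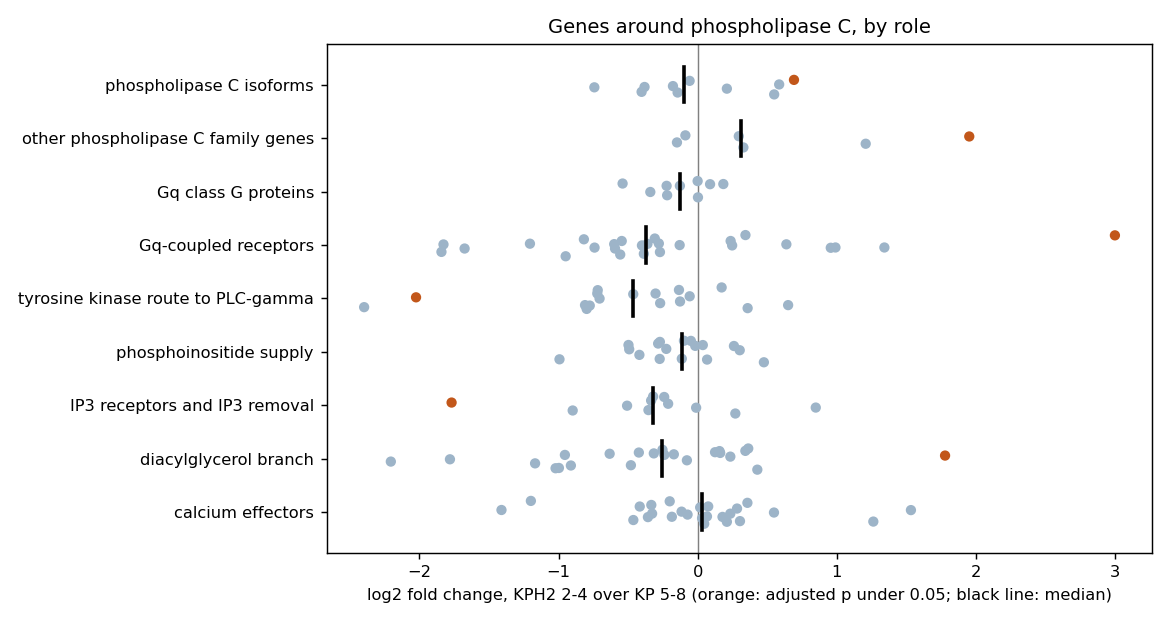
Log2 fold change (KPH2 2 to 4 over KP) of every tested gene in the lists by role, 1 point per gene, with a black line at each list's median and orange points for an adjusted p under 0.05. The medians run from −0.46 for the tyrosine kinase route to 0.31 for the related phospholipase C genes.

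Since each tumour is a mixture, levels were read beside marker lists of other cell types, and in bulk RNA fewer cells of a type and less RNA per cell cannot be told apart. All 20 skeletal muscle markers had a positive log2 fold change (median 2.15). Of these markers 19 had an unadjusted p under 0.05, beside 8.5% of all genes higher. In edgeR 2 passed the threshold and in DESeq2 16, beside 1.24% and 3.8%, and none of these markers was at 0 throughout. Their summed level was 1782 to 3247 CPM in KP, 1467 in KPH2 1 and 12100, 18940 and 4195 in KPH2 2 to 4. The muscle score, the mean log2 CPM of the list, was 2.13 higher in KPH2 2 to 4 (exact permutation test, 2-sided, p = 0.029, the smallest that 35 arrangements allow; 0.13 adjusted over 9 lists). With KPH2 1 added the difference was 1.46 (exact permutation p = 0.14). Plcb3 and the muscle score had a correlation of 0.79 over the 8 tumours, Plcb4 0.70 and Plcg2 −0.86. The Schwann cell and nerve score differed by 0.64, which did not pass (exact permutation p = 0.14), and of its 9 tested markers 6 were higher and 3 lower. With this score the correlation was 0.76 for Plcb3, 0.80 for Plcb4 and −0.61 for Plcg2. The tumours are of both genotypes and share their library scaling, so these are descriptions. KPH2 4, with a muscle score of 5.43 beside 5.21 in KP 5 and KP 8, had the highest Plcb3 level of all, 117 CPM, and 62.7 CPM of Plcl1. KPH2 1, with a muscle score of 4.07, had 60.9 CPM of Plcb3 and 11.7 CPM of Plcl1, both within the KP range. The part of muscle in these levels was not tested. A fit that also held the muscle score can hardly separate score from genotype, as KPH2 2 to 4 all scored above every KP tumour. Nothing about muscle is therefore read from it. In that fit the difference (log2) was 0.71 ± 0.25 for Plcb3 and 2.03 ± 0.46 for Plcl1, the latter with an adjusted p of 0.347 by edgeR, and −0.06 ± 0.30 for Plcg2. For Plcb2 it was −0.24 ± 0.44, beside −0.74 without the score, and 3 genes of all those tested passed the threshold in that fit.

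All 12 macrophage and myeloid markers had a negative log2 fold change, 0 of them past the threshold in edgeR. Beside 9.26% and 3.45% of all genes lower, 5 had an unadjusted p under 0.05 and 1 passed by DESeq2. None of these markers was at 0 throughout. Their summed level was 2367 to 4573 CPM in KP, 2281 in KPH2 1 and 1792 to 2600 in KPH2 2 to 4. The myeloid score of KPH2 2 to 4 minus that of KP was −0.61 (exact permutation p = 0.086, 0.25 adjusted over 9 lists). Over the 8 tumours Plcb2 had a correlation of 0.71 with the myeloid, 0.67 with the fibroblast and 0.64 with the endothelial score, and Plcg2 had 0.62, 0.23 and 0.14. The part of these cell types in the levels was not tested. Without KPH2 1, the order of the 7 tumours by Plcg2 level was their order by myeloid score, from KPH2 2 (25.9 CPM, score 6.35) to KP 6 (45.9 CPM, score 7.47), across both genotypes. KPH2 1 departed from this order, with the highest Plcg2 level at a myeloid score of 6.49. This order was noticed after the values were seen. Over all 8 tumours Plcg2 ran more closely, in the opposite direction, with the muscle score (correlation −0.86). The scores of the other lists differed by −0.73 for fibroblast (exact permutation p = 0.029, 0.13 adjusted), 0.64 for Schwann cell, −0.61 for adipocyte, −0.49 for T and NK cell, −0.45 for smooth muscle, −0.42 for endothelial and −0.29 for B cell markers, with exact p of 0.14 or above for these 6. With KPH2 1 added the fibroblast difference was −0.755 (exact permutation p = 0.029, 0.25 adjusted). All KPH2 fibroblast scores (8.608 to 9.305) lay below all KP scores (9.501 to 9.62). Of the 12 fibroblast markers 9 were lower and 3 higher, and they include Pdgfra, which was named above.

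**Figure D5:**
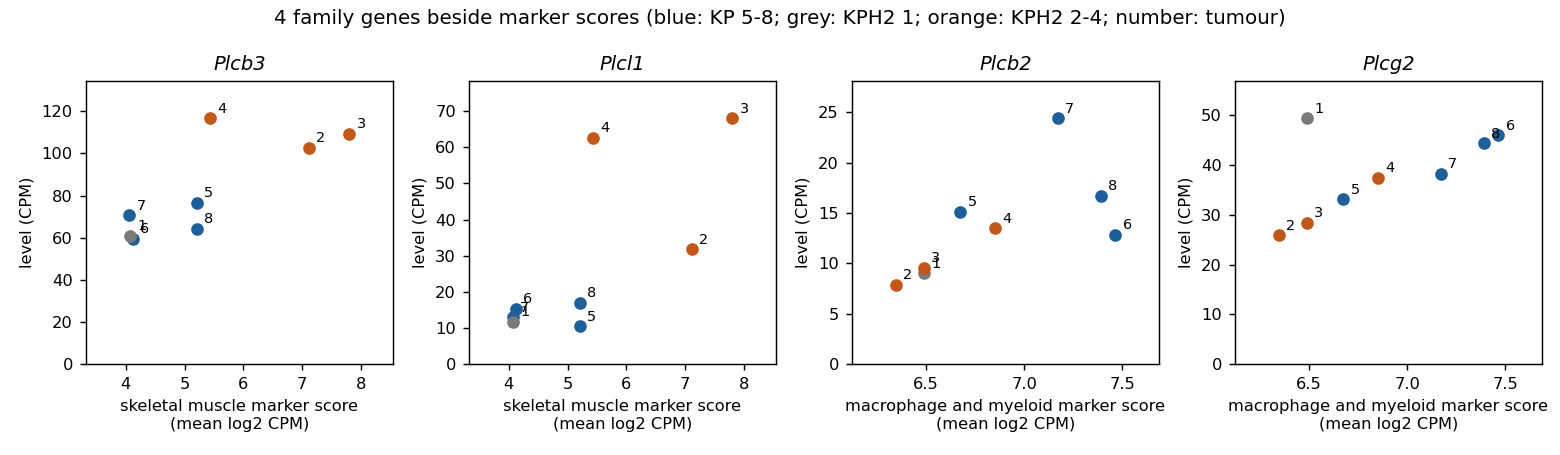
Levels (CPM, linear axis from 0) of Plcb3 and Plcl1 against the skeletal muscle score and of Plcb2 and Plcg2 against the macrophage and myeloid score (mean log2 CPM), 1 point per tumour, numbered and coloured by KP 5 to 8, KPH2 1 and KPH2 2 to 4. KPH2 4 (muscle score 5.43) has Plcb3 at 117 CPM, and KPH2 1 (4.07) lies with the KP tumours at 60.9.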

How the data were processed

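RNA of 8 tumours was sequenced from ribosome-depleted, stranded, single-end libraries. The authors aligned reads with STAR 2.4 to GRCm38 and, with HTSeq 0.6.1, counted those that aligned uniquely to each RefSeq gene (versions from the submitters' processing notes). The deposited whole-number counts were used here as given, and the deposited table of rlog values for 7 tumours was not used. Levels are CPM with TMM factors over all 8 tumours. edgeR 4.0.16 (quasi-likelihood, TMM, robust, at least 10 counts by its filter and 15 in total) compared KPH2 2 to 4 with KP 5 to 8, with Benjamini-Hochberg adjustment over all genes tested. The fit was tested on simulated data. DESeq2 1.42.0 was an alternative. RPKM used exon unions of GENCODE M21 transcripts matched to RefSeq.

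The isoforms, gene lists and markers were chosen with earlier results of these data known. Named were all isoforms and related genes, the genes past an adjusted p of 0.05 in each list or, failing those, the largest rise and fall among genes whose groups did not overlap, and Epas1. For likeness, the 3 genes with the highest correlation to each of the 3 most variable isoforms were named. P-values measure the spread between these tumours, as the labels do not say whether each came from its own animal. The further engineered allele that both genotypes carry is not reported here.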

Additional observations from a re-analysis of the deposited data

Results flagged for a closer look

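In 7 of 68 groups of 4 tumours examined, 1 tumour stood far from the other 3 by Dixon's ratio of gap to range, which chance does in about 1 of 20 groups. Plcg1 was at 184 CPM in KPH2 3, beside 108 to 119 in the other KPH2 tumours. Plce1 was at 13.7 CPM in KP 8, beside 32.0 to 32.7 in the other KP tumours. Plcxd3 was at 6.23 CPM in KP 5, beside 1.21 to 1.98. Pdgfra was at 638 CPM in KPH2 1, beside 223 to 273. Epas1 was at 59.1 CPM in KP 5, beside 83.0 to 86.7. The endothelial marker score was 4.89 in KP 5, beside 5.55 to 5.63, and 4.45 in KPH2 1, beside 4.96 to 5.04.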

How the results depend on the processing

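The signs of the log2 fold changes of Plcb2, Plcb3, Plcb4, Plcg2 and Plcd3 were the same in all 16 alternatives, although Plcb2 moved from −0.74 to −0.24 and Plcg2 from −0.40 to −0.06 with the muscle covariate. Of 157 isoform values, 149 moved by less than 1 SD of the replicates. Plcb3 ran from 0.52 to 0.77. Plcb1 and Plcd1 became positive without KP 5 (0.46 and 0.18), Plcg1 became negative without KPH2 3 (−0.06), and Plce1 kept its sign in 9 of 16.

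The number of isoforms past the threshold, a description only since they were chosen with their levels known, was 1 and became 0 over all 8 tumours, with upper-quartile normalization, with no filter, with a mean count of at least 50, with the muscle covariate and by DESeq2 over 8 tumours (an alternative chosen after seeing the data), and 0 to 1 when a tumour was left out, 1 only without KP 5. The number of all genes called, 292, was 1 over 8 tumours, 3 with the muscle covariate, 1178 by DESeq2 and 643 by DESeq2 over 8 tumours. Leaving out 1 tumour gave 55 to 349 genes: 130 without KP 6, 73 without KP 7, 130 without KP 8, 55 without KPH2 2, 159 without KPH2 3 and 153 without KPH2 4. In the lists by role the 5 genes called became 0 over 8 tumours and with the covariate, 20 by DESeq2, 12 by DESeq2 over 8 tumours, and 1 to 7 when a tumour was left out. The causes were not tested. No paired analysis was possible because the genotypes share no replicate numbers. Plcd4 rested on 5 to 26 reads per tumour, and the effect of depth was not tested.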

Other observations

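Among 14978 genes, those whose log2 CPM ran most like that of the 3 most variable isoforms over the 8 tumours were Narg2, 1810010H24Rik and Ddx10 for Plce1 (Pearson r of 0.978, 0.965 and 0.961), Pigt, Eml1 and Apol6 for Plcb1 (0.983, 0.982 and 0.946) and Comp, Gas2 and Osbp2 for Plcd4 (0.955, 0.945 and 0.941). Each was the highest among all genes compared, over 8 tumours that share library scaling, and Plce1 and Plcb1 each had 1 tumour far above the others, KPH2 1 and KP 5.

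Among the isoforms themselves, Plcb3 ran with Plcb4 (r = 0.87) and Plcd3 (0.83) and opposite to Plcg2 (−0.78) over the 8 tumours. These are descriptions of tumours of both genotypes.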
